A study of Mus musculus with 9 samples.

Results

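A group of 9 related TRIM genes lies close together on mouse chromosome 7. All 9 of them, of 46958 genes in the count table, are described here across 3 genotypes of mouse plasma cells. They are Trim6, Trim34a, Trim5, Trim12a, Trim12c, Trim30b, Trim30c, Trim30a and Trim30d, taken by their names in the table. The members were chosen by measured values: the set was selected on the fold change of Trim12a in kFRA against WT, known from earlier work on these files to be among the lowest of all genes. Their values are therefore given as a description with no p-value. All 9 passed the filter on low counts, which kept 14199 genes.

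The libraries came from spleen plasma cells bound through CD138 on beads, at a stated purity above 80%, with 1 spleen for each library; the mice were 3 months old and not immunized. Of the 9 libraries, 3 came from WT (wild-type) mice, 3 from DH-LMP2A mice and 3 from kFRA mice. DH-LMP2A is named for LMP2A, a viral membrane protein that can stand in for a B cell receptor signal, and kFRA is the genotype with the light chain of light chain deposition disease (LCDD), in which free immunoglobulin light chains are laid down in tissues. All 3 genotypes share a mixed C57/BL6x129/SVxBALB/c background. The labels do not give the alleles of either model in more detail, nor which strain's copy of this cluster each mouse carried. Total counts lay between 15449026 and 21558128 per library.

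TRIM proteins are ubiquitin ligases built from a RING domain, a B-box and a coiled coil, and many end in a SPRY domain that binds the target. Primate TRIM5 binds the capsid of incoming retroviruses and blocks infection, and mouse Trim5, Trim12a and Trim12c are its closest relatives, while the Trim30 genes are a rodent branch of the same family. Many of these genes are switched on by interferon through a DNA element called the ISRE, and the number of copies in the cluster differs between mammals and between mouse strains.

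The 9 genes span 289.1 kb of chromosome 7 in GRCm38. Trim6 lies at chr7:104218793-104235152 and Trim34a at chr7:104244457-104340693, both on the plus strand. On the minus strand lie Trim5 at chr7:104263386-104288094, Trim12a at chr7:104299894-104315466 and Trim12c at chr7:104338754-104353362. Trim5 and Trim12a lie within the span of Trim34a, and Trim12c overlaps its end. The Trim30 genes lie beyond them on the minus strand, with Trim30b at chr7:104355382-104369884, Trim30c at chr7:104382065-104390586, Trim30a at chr7:104409025-104465193 and Trim30d at chr7:104470014-104507849. All 9 are annotated as protein coding, but the longest coding sequence of Trim12a has 297 codons and that of Trim30b 203, against 485 to 513 codons for the other 7.

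An ISRE, searched as GAAANNGAAA on both strands, was found in the RefSeq promoters (GRCm38.p6, 250 bases before to 50 after the start) of 6 of the 9 genes. This match is held by 3.44% of all 32851 promoters there and by 24 of 40 interferon-stimulated genes with such a promoter. The 6 of 9 and the 24 of 40 are counted by gene and the 3.44% by promoter, so they are not on the same unit. The 40 bases around 1 match of each gene are shown because copies share them, read 5′ to 3′ on the strand of the gene with the match in capitals.
Trim5: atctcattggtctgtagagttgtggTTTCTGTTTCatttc
Trim12a: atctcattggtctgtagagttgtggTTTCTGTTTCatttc
Trim12c: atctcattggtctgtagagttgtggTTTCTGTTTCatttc
Trim30a: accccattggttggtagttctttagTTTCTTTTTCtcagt
Trim30d: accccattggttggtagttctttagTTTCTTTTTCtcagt
Trim34a: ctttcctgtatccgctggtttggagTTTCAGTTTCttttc
The Trim5, Trim12a and Trim12c windows were identical at 40 of 40 bases, and so were those of Trim30a and Trim30d. Trim30a has a second promoter in RefSeq, whose match at chr7:104446109-104446148 has other flanking bases.
Trim30a, second promoter: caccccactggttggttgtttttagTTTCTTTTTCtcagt
The positions are chr7:104288141-104288180 for Trim5, chr7:104315471-104315510 for Trim12a and chr7:104353364-104353403 for Trim12c. For Trim30a the window is chr7:104465215-104465254, for Trim30d chr7:104507876-104507915 and for Trim34a chr7:104244442-104244481. These letters were not found in the promoters of Trim6, Trim30b and Trim30c. The Trim30b promoter in RefSeq, chr7:104358597-104358896, lies inside the gene as counted here. That of Trim30c, chr7:104400729-104401028, lies upstream of the counted gene, which starts at 104390586 on the minus strand. The bases at the start of the counted Trim30b and Trim30c genes were thus not searched. A second interferon element, the GAS searched as TTCNNNGAA on both strands, was found for 1 of the 9 genes and in 8.3% of all promoters.

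Similar copies can exchange reads in counting. The coding sequence of Trim12a was 97.1% identical to that of Trim5 and 96.4% identical to that of Trim12c over 891 aligned bases, and Trim30a was 90.2% identical to Trim30d. Among all 75-base windows of its transcripts, the length of 1 read, Trim34a shared 29.5% exactly with another gene (Trim34b), Trim5 20.6% and Trim12c 16.9%. The share was 5.25% for Trim12a, 5.4% for Trim30d, 4.98% for Trim30a and 0.486% for Trim6. It was 0.078% for Trim30b, and none of the windows of Trim30c was shared. Exons of Trim34a also overlap exons of Trim34b over 875 bases on the same strand and of Trim12c over 405 bases on the opposite strand. The levels of Trim34a, Trim5 and Trim12c are therefore the least certain, and whether strand was used in counting is not given in the sources used here.

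Levels are given as CPM, that is counts scaled to one common library total after TMM scaling, as mean ± SD over 3 libraries, and fold changes are log2 values of the edgeR fit with their standard error (SE). A gene is counted as called where the Benjamini-Hochberg adjusted p of edgeR's quasi-likelihood test was under 0.05. In kFRA against WT 6 of the 9 genes were called lower, Trim6, Trim34a, Trim5, Trim12a, Trim30b and Trim30d, where 11.1% of all tested genes were called lower and 6.68% higher. The libraries of these 6 did not overlap between kFRA and WT, which held in the lower direction for 20.2% of all tested genes. In DH-LMP2A against WT 3 were called lower, Trim5, Trim30b and Trim30d, against 7.3% lower and 5.07% higher over all genes, and the same 3 did not overlap, against 19.1% of all genes. With library size alone in place of TMM 0 of these 3 were called, and Trim5 and Trim30d overlapped. Trim30d was also not called with the replicate number as a block or with only the 6 libraries compared. In kFRA against DH-LMP2A 5 were called lower, Trim6, Trim5, Trim12a, Trim30b and Trim30d, against 3.3% lower and 1.73% higher over all genes. In that comparison 7 did not overlap, these 5 with Trim34a and Trim12c, against 13.9% of all genes. None of the 9 was called higher in any comparison, none was higher at an unadjusted p under 0.05 (0 of 9 each time), and DESeq2 called 0 higher. DESeq2 called 7 lower in kFRA against WT, 3 in DH-LMP2A against WT and 6 in kFRA against DH-LMP2A. Since the members were chosen with these values known, nothing is read from the counts. The 3 comparisons share libraries, so they are not independent of each other.

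**Figure D1:**
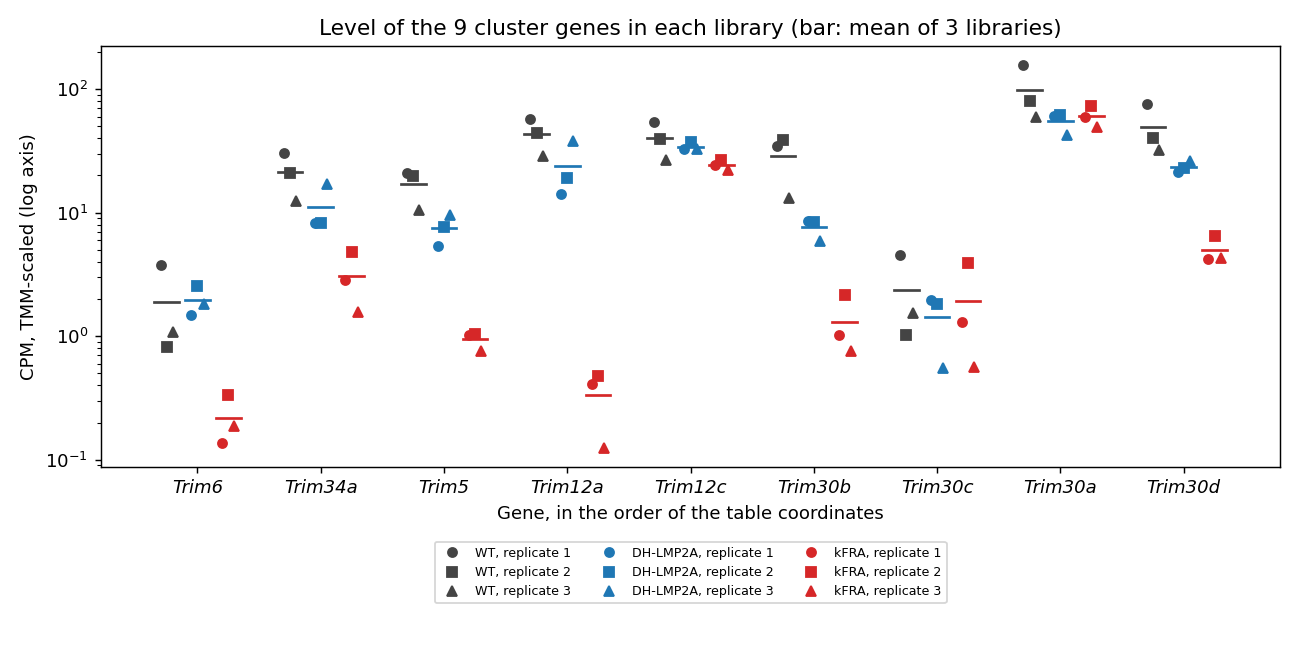
Each point is 1 library's level of 1 gene in TMM-scaled CPM on a log axis, with color for genotype, shape for replicate number and a bar at the mean of 3 libraries. The kFRA points of Trim12a lie between 0.126 and 0.476 CPM, far under every other library, while those of Trim30a and Trim30c lie among the points of the other genotypes.

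Among the TRIM5 relatives, Trim12a had the lowest levels in kFRA. Its level was 57.3, 43.8 and 28.6 CPM in WT replicates 1, 2 and 3, and 14.2, 18.9 and 37.8 CPM in the DH-LMP2A replicates. In kFRA it was 0.41, 0.476 and 0.126 CPM, which are 6, 10 and 2 counts. Every kFRA library lay below every other library, while DH-LMP2A replicate 3 lay inside the WT range. In these libraries 3 counts are worth 0.127 to 0.205 CPM, so kFRA replicate 3 was at the detection floor. The log2 fold change was -6.94 (SE 0.565) in kFRA against WT, -6.07 (SE 0.559) in kFRA against DH-LMP2A and -0.87 (SE 0.384) in DH-LMP2A against WT. From the summed counts the level in kFRA was 127-fold lower than in WT, with an exact 95% interval of 80.2 to 215, and 67.1-fold lower than in DH-LMP2A, with an interval of 42.3 to 114. Such intervals cover counting error only.

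Trim12c, the full-length neighbour with the same 40-base window, did not share these low values. Its level was 54.3, 39.8 and 26.5 CPM in WT, 32.7, 37.6 and 32.6 CPM in DH-LMP2A and 24.2, 26.9 and 22.1 CPM in kFRA. The kFRA libraries overlapped the lowest WT library and lay below all of DH-LMP2A. On the log2 scale the fold change was -0.72 (SE 0.228) in kFRA against WT, -0.49 (SE 0.227) in kFRA against DH-LMP2A and -0.23 (SE 0.226) in DH-LMP2A against WT. None of the 3 was called in the main fit. In kFRA against WT Trim12c was called lower in 4 of 14 fits. These were the DESeq2 Wald test, the fit with no filter, the replicate block and the fit without WT replicate 3.

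In its kFRA level and in the log2 fold changes of kFRA, Trim5 lay between these copies. Its means in WT and DH-LMP2A, and its fold change in DH-LMP2A against WT, lay below those of both. It was at 21.1, 19.6 and 10.6 CPM in WT, at 5.42, 7.7 and 9.56 CPM in DH-LMP2A and at 1.03, 1.05 and 0.753 CPM in kFRA. After TMM scaling the 3 genotypes did not overlap, with WT highest and kFRA lowest. By library size alone WT and DH-LMP2A overlapped. WT replicate 3 had 166 counts of 20159149 and DH-LMP2A replicate 3 had 209 of 20782477. The log2 fold change was -4.17 (SE 0.354) in kFRA against WT, -2.99 (SE 0.346) in kFRA against DH-LMP2A and -1.18 (SE 0.295) in DH-LMP2A against WT. The summed counts gave an 18.5-fold lower level in kFRA than in WT (exact 95% interval 13.9 to 25.2).

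A share within a pair of copies does not depend on library size. Trim12a took 51.3%, 52.4% and 51.9% of the counts of Trim12a plus Trim12c in the 3 WT libraries. The share was 30.3% and 33.5% in DH-LMP2A replicates 1 and 2 and 53.7% in replicate 3. In kFRA it was 1.67%, 1.74% and 0.565%, with a highest upper bound of 3.59% (95% Wilson interval). WT was thus narrow, kFRA near 0, and DH-LMP2A was split, with replicate 3 at the WT value. Trim5 took 28.0%, 33.0% and 28.5% of Trim5 plus Trim12c in WT, 14.2%, 17.0% and 22.7% in DH-LMP2A and 4.07%, 3.75% and 3.3% in kFRA, with no overlap between genotypes. Trim34a, whose exons overlap Trim12c, took 36.1%, 34.3% and 32.0% of that pair's counts in WT, 20.1%, 18.1% and 34.4% in DH-LMP2A and 10.6%, 15.2% and 6.63% in kFRA.

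**Figure D2:**
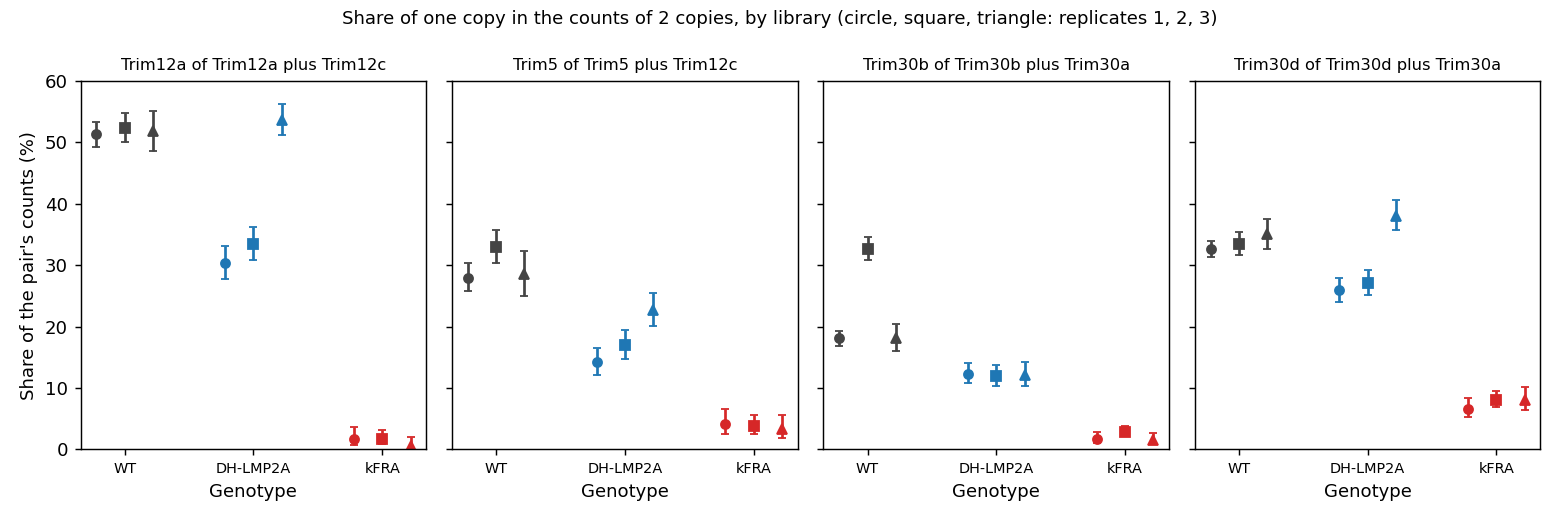
Each panel gives the share of 1 copy, in percent, in the summed counts of a pair of copies for each library, with 95% Wilson intervals as bars (counting error only). In the Trim12a and Trim30d panels DH-LMP2A replicate 3 (53.7% and 38.1%) lies above DH-LMP2A replicates 1 and 2, whereas in the Trim30b panel the 3 DH-LMP2A libraries lie between 12% and 12.3%.

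In the Trim30 branch, Trim30a is the best-known member, a gene induced on innate immune activation whose protein is known to restrain NF-kB signalling. Its level was 156.7, 80.5 and 59.7 CPM in WT, 61.0, 61.4 and 42.8 CPM in DH-LMP2A and 59.4, 73.7 and 49.0 CPM in kFRA. The WT mean of 98.98 ± 51.1 CPM was raised by replicate 1, and each pair of genotypes overlapped. Its log2 fold change was -0.71 (SE 0.331) in kFRA against WT, -0.85 (SE 0.331) in DH-LMP2A against WT and 0.14 (SE 0.330) in kFRA against DH-LMP2A. Without WT replicate 1 the first 2 of these were -0.21 and -0.35.

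Trim30d, the copy most like Trim30a in sequence, was at 75.9, 40.5 and 32.3 CPM in WT. It was at 21.4, 22.8 and 26.4 CPM in DH-LMP2A and at 4.24, 6.47 and 4.33 CPM in kFRA. After TMM scaling the 3 genotypes did not overlap. By library size alone WT and DH-LMP2A did, with 507 counts of 20159149 in WT replicate 3 and 576 of 20782477 in DH-LMP2A replicate 3. Its log2 fold change was -3.30 (SE 0.332) in kFRA against WT, -2.22 (SE 0.322) in kFRA against DH-LMP2A and -1.08 (SE 0.300) in DH-LMP2A against WT. Trim30d took 32.6%, 33.4% and 35.1% of the counts of Trim30d plus Trim30a in WT, 25.9%, 27.1% and 38.1% in DH-LMP2A and 6.66%, 8.07% and 8.12% in kFRA. In this share, as in that of Trim12a, DH-LMP2A replicate 3 lay apart from the other DH-LMP2A libraries and near WT. The level of Trim30d there, 26.4 CPM, was below every WT library after TMM scaling. Trim30a in that library was at 42.8 CPM, against 61.0 and 61.4 in DH-LMP2A replicates 1 and 2.

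Trim30b, which has the shortest coding sequence of the 9, was at 34.5, 39.0 and 13.3 CPM in WT, at 8.55, 8.35 and 5.9 CPM in DH-LMP2A and at 1.03, 2.14 and 0.753 CPM in kFRA. It too ran from WT to DH-LMP2A to kFRA with no overlap. The log2 fold change was -4.43 (SE 0.498) in kFRA against WT, -2.50 (SE 0.480) in kFRA against DH-LMP2A and -1.93 (SE 0.426) in DH-LMP2A against WT, the lowest of the 9 genes in that last comparison. Its share of Trim30b plus Trim30a was 18.1%, 32.7% and 18.2% in the WT libraries, 12.3%, 12% and 12.1% in DH-LMP2A and 1.7%, 2.82% and 1.51% in kFRA.

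Trim30c was low in every genotype, at 4.51, 1.02 and 1.53 CPM in WT, 1.95, 1.81 and 0.549 CPM in DH-LMP2A and 1.3, 3.9 and 0.565 CPM in kFRA. All genotypes overlapped, and the fold change had no stable sign: in kFRA against WT it was -0.27 (SE 0.763) with all libraries and 0.63 without WT replicate 1.

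The remaining 2 genes lie at the Trim6 end of the cluster. Trim34a, the mouse relative of the interferon-induced human TRIM34, was at 30.7, 20.8 and 12.5 CPM in WT, 8.21, 8.31 and 17.1 CPM in DH-LMP2A and 2.87, 4.81 and 1.57 CPM in kFRA. The kFRA libraries lay below all others, and DH-LMP2A replicate 3 lay within WT. On the log2 scale Trim34a differed by -2.77 (SE 0.488) in kFRA against WT, -1.84 (SE 0.479) in kFRA against DH-LMP2A and -0.93 (SE 0.447) in DH-LMP2A against WT. Trim6, known for making free ubiquitin chains that support interferon signalling, was at 3.75, 0.816 and 1.08 CPM in WT, 1.48, 2.55 and 1.83 CPM in DH-LMP2A and 0.137, 0.333 and 0.188 CPM in kFRA. Its kFRA levels rest on 2, 7 and 3 counts, and its WT and DH-LMP2A libraries overlapped. From the summed counts Trim6 was 8.35-fold lower in kFRA than in WT (exact 95% interval 4.59 to 16.7) and 8.34-fold lower than in DH-LMP2A (4.61 to 16.5).

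Calls of single genes depended on single libraries in places. In kFRA against WT between 5 and 7 of the 9 genes were called when each library was left out in turn. For DH-LMP2A and WT the 3 calls fell to 0 without DH-LMP2A replicate 1, WT replicate 1 or WT replicate 2, and to 1 without DH-LMP2A replicate 2. In kFRA against DH-LMP2A the 5 calls fell to 3 without kFRA replicate 1, kFRA replicate 3, DH-LMP2A replicate 1 or DH-LMP2A replicate 2.

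Per kilobase of exon, Trim30a was the highest of the 9 in each genotype, at 22.4 CPM per kb in WT mice, 12.5 in DH-LMP2A and 13.7 in kFRA. In WT it was followed by Trim30d at 13.2 CPM per kb, Trim12c at 10.8, Trim12a at 7.48, Trim34a at 5.01, Trim30b at 4.86, Trim5 at 4.64, Trim30c at 1.53 and Trim6 at 0.385. Each neighbouring pair in that WT order overlapped in its libraries. In DH-LMP2A the order was Trim30a, Trim12c at 9.17 CPM per kb, Trim30d at 6.26, Trim12a at 4.09, Trim34a at 2.63, Trim5 at 2.05, Trim30b at 1.28, Trim30c at 0.931 and Trim6 at 0.399. There, Trim12c did not overlap Trim30d, and Trim5 did not overlap Trim30b. In kFRA, Trim30a and Trim12c (6.52 CPM per kb) stood above the other 7, of which Trim30d was the highest at 1.33 and Trim12a and Trim6 the lowest at 0.0583 and 0.0448 CPM per kb.

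Summed over the 9 genes the level was 438.8, 285.9 and 186.0 CPM in WT (303.6 ± 127.3), 154.9, 169.4 and 174.6 CPM in DH-LMP2A (166.3 ± 10.2) and 94.7, 119.7 and 79.4 CPM in kFRA (97.9 ± 20.4). After TMM scaling the genotypes did not overlap, and the log2 ratio of means was -1.63 between kFRA and WT, -0.87 between DH-LMP2A and WT and -0.76 between kFRA and DH-LMP2A. By library size alone, WT replicate 3 lay below every DH-LMP2A library and below kFRA replicate 2. It had 2921 summed counts of 20159149, against 2517 of 17202746 in kFRA replicate 2. The DH-LMP2A libraries had 3661 of 20646989, 3652 of 18484303 and 3815 of 20782477. In kFRA against WT the sum lay nearer to 0 on the log2 scale than any of the 6 called genes did. Trim12c, Trim30a and Trim30c together were at 141.5 ± 66.2 CPM in WT, 90.8 ± 13.1 CPM in DH-LMP2A and 87.0 ± 16.5 CPM in kFRA, and overlapped in all 3 comparisons. The other 6 genes are those called lower in kFRA against WT, so the size of their difference was fixed by how they were split off. Together they were at 162.0 ± 62.5, 75.5 ± 20.5 and 10.9 ± 3.92 CPM, which is 14.9-fold lower in kFRA than in WT and 6.93-fold lower than in DH-LMP2A. The make-up of the sum differed in turn: Trim30a made up 32.0% of it in WT mice, 33.4% in DH-LMP2A and 62.0% in kFRA, and Trim12a 14.6%, 14% and 0.33%. In these bulk libraries fewer cells that express a gene and less RNA per cell cannot be told apart.

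**Figure D3:**
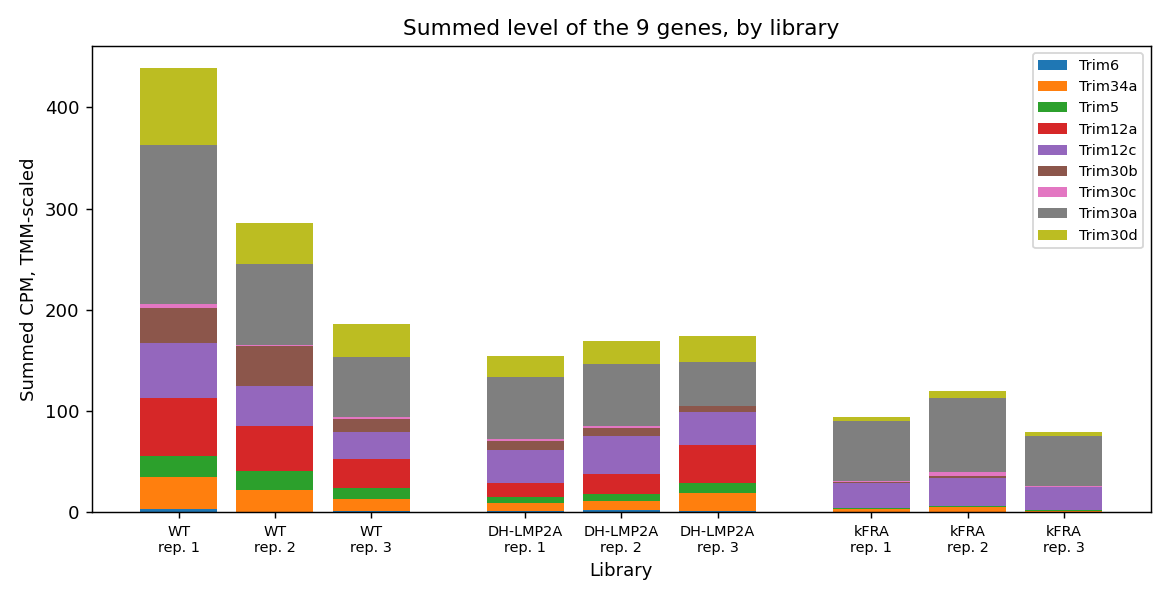
Each bar is the summed TMM-scaled CPM of the 9 genes in 1 library, split by gene, from 0. The kFRA bars end between 79.4 and 119.7 CPM and consist mostly of Trim30a and Trim12c, while the WT bars reach 186.0 to 438.8 CPM.

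Over the 9 libraries the log2 levels of the copies fell into different patterns, given as Pearson r with no test because the libraries share genotypes and the fold changes above. Trim12a correlated with Trim5 at 0.984, with Trim30d at 0.967 and with Trim12c at 0.783. With Trim30a it correlated at 0.335 and with Trim30c at 0.123, while Trim30a and Trim30c correlated at 0.77. The 5 genes most like Trim30a among 12571 others were Ifi204 (0.986), Usp18 (0.968), Ifi27l2a (0.967), Dhx58 (0.966) and Abhd17c (0.964). The first 4 are interferon-stimulated genes. The 5 most like Trim12a were Igkv3-5 (0.993), Gm1966 (0.993), Igkv1-117 (0.989), Igkv6-32 (0.987) and Igkv4-55 (0.986), that is 4 immunoglobulin kappa variable segments on chromosome 6 and Gm1966, a chromosome 7 gene.

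Other genes inside the cluster and around it were read for comparison. Of 7 genes inside the span that are not members, 5 had counts. Trim34b, another Trim34 copy, was at 2.58 ± 1.08 CPM in WT, 1.52 ± 0.441 CPM in DH-LMP2A and 1.14 ± 0.533 CPM in kFRA and was not called in any comparison. Gm15133, an antisense gene at the start of Trim12a, had 44, 23 and 6 counts in WT, 14, 8 and 24 in DH-LMP2A and 0 in each kFRA library. Against a floor of 3 counts per library it was at least 7.06-fold lower in kFRA than in WT (edgeR adjusted p = 0.0112) and at least 3.85-fold lower than in DH-LMP2A (edgeR adjusted p = 0.0505). Gm16464, a processed pseudogene within Trim30d, was at 1.6 CPM in WT mice, 0.558 in DH-LMP2A and 0.0773 in kFRA, under the level of 3 counts, and was called lower in kFRA against WT (edgeR adjusted p = 0.00575).

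Within 1 Mb of the cluster lie 144 further genes, of which 101 are olfactory receptors and none of those passed the filter. Outside the span 6 were tested. Hbb-bs and Hbb-bt, adult beta-globin genes of red cells, rose in kFRA against WT, by 3.38 (SE 0.907, edgeR adjusted p = 0.0322) and 3.06 (SE 0.844, edgeR adjusted p = 0.0358) on the log2 scale. They also rose in DH-LMP2A against WT, by 5.09 (SE 0.982, edgeR adjusted p = 0.00969) and 4.82 (SE 0.91, edgeR adjusted p = 0.00875). The other 4, Gm4887, Gm5900, Fam160a2 and Prkcdbp, were not called in any comparison, and Fam160a2 had a log2 fold change of 0.26 (SE 0.138) in kFRA against WT. In kFRA against DH-LMP2A edgeR called 0 of the 9 neighbours tested, with 2 lower and 0 higher at an unadjusted p under 0.05, and DESeq2 called 2 lower. Gm15133 and Gm16464, the other called neighbours, thus lie inside the cluster and fell in kFRA against WT. The 4 calls in that comparison fell to 2 without WT replicate 1, WT replicate 2, kFRA replicate 1 or kFRA replicate 3.

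Gm1966, named by its likeness to Trim12a, starts 2.09 Mb beyond the cluster at chr7:106596743-106604035. It was at 130.6, 163.5 and 112.0 CPM in WT, 42.7, 41.8 and 93.6 CPM in DH-LMP2A and 0.479, 1.43 and 0.251 CPM in kFRA. As for Trim12a, DH-LMP2A replicate 3 was nearest to WT. Its log2 change was -7.46 (SE 0.579) in kFRA against WT, -6.27 (SE 0.56) in kFRA against DH-LMP2A and -1.19 (SE 0.412) in DH-LMP2A against WT. Since the gene was picked for its likeness to Trim12a over these libraries, its values restate that choice and are given with no test. Of the 24 tested genes between it and the cluster, the first 17 held 1 gene called lower in kFRA against WT, Dchs1. The other 7, from Gm4070 on, were all called lower there, against 11.1% of all tested genes. They include Gvin1, a large interferon-inducible GTPase, at -2.90 (SE 0.48). Whether these 7 genes and Gm1966 share read-length sequence was not tested, so their values need not be independent. This division at Gm4070 was made after the values were seen. Of those 7 genes, edgeR called 2 lower in DH-LMP2A against WT (7.3% over all genes) and 0 in kFRA against DH-LMP2A (3.3% over all genes). In that last comparison 8 of the 24 genes were lower and 2 higher at an unadjusted p under 0.05, and DESeq2 called 6 lower and 1 higher.

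**Figure D4:**
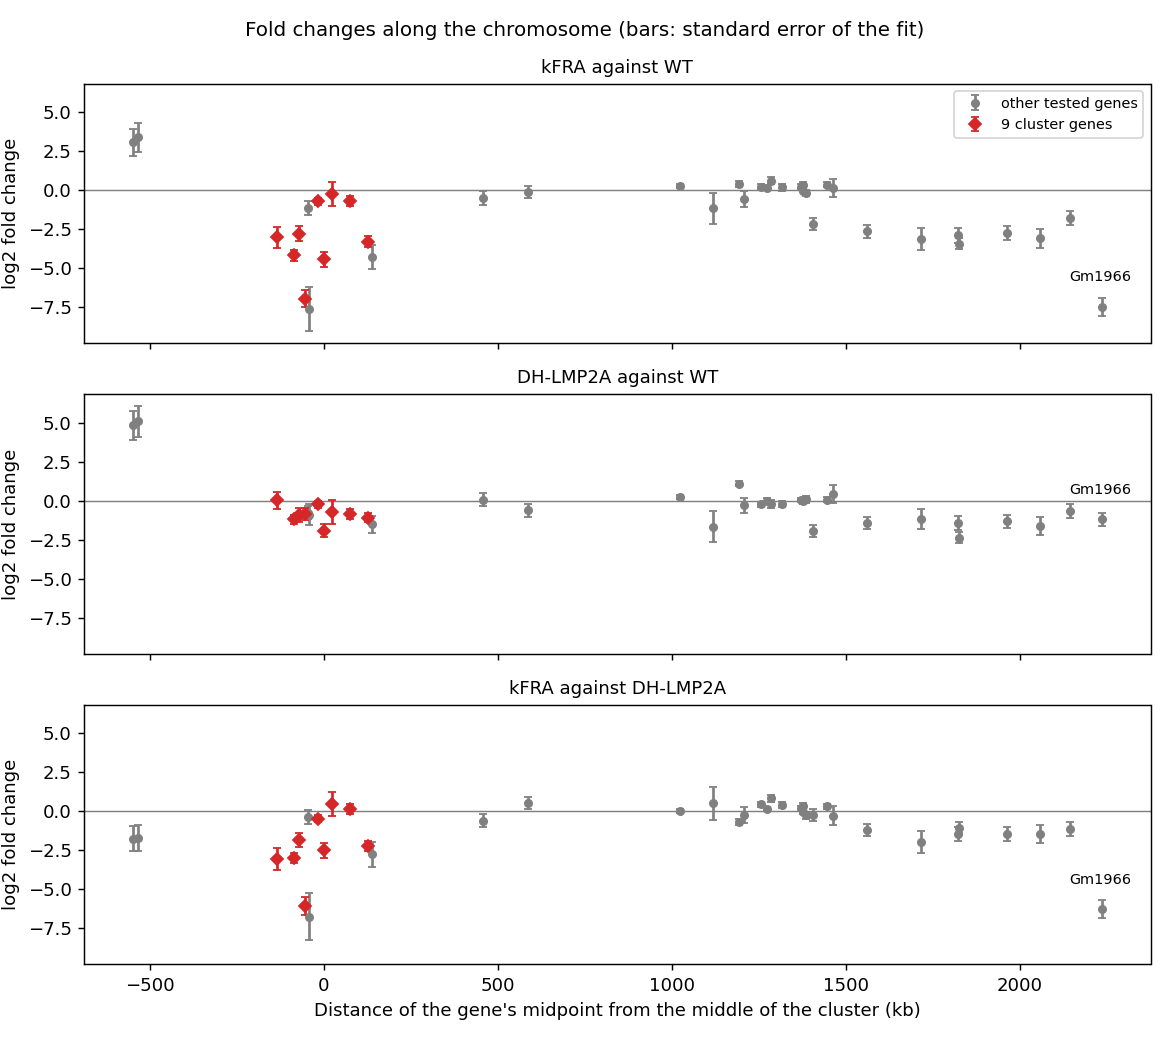
The y axis is the log2 fold change with its SE as a bar, and the x axis the distance in kb of each tested gene from the middle of the cluster, for the 9 members (diamonds) and the other tested genes up to Gm1966 (grey). In kFRA against WT the members run from -6.94 to -0.27, the grey point of Gm15133 beside Trim12a depends on the prior count since kFRA had 0 counts, and the low points at the right end are the genes from Gm4070 to Gm1966.

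The interferon pathway was read through 52 interferon-stimulated genes, all of them tested. In kFRA against WT 19 fell and 0 rose (11.1% lower over all genes), with a median log2 fold change of -1.16 against -0.04 over all genes and -3.02 over the 9 members. At an unadjusted p under 0.05 34 were lower and 0 higher, and DESeq2 called 28 lower and 0 higher. Oasl1, an OAS-like antiviral gene, changed by -3.50 (SE 0.537, edgeR adjusted p = 0.00266), its relative Oasl2 by -3.84 (SE 0.726, edgeR adjusted p = 0.00738) and Slfn8, a Schlafen family gene, by -3.37 (SE 0.642, edgeR adjusted p = 0.00753). Phf11b was the next by p, at -1.17 (SE 0.232, edgeR adjusted p = 0.00919). In DH-LMP2A against WT 13 fell and 0 rose (7.3% lower over all genes), with a median of -1.22 against -0.01 over all genes and -0.87 over the members. At an unadjusted p under 0.05 39 were lower and 0 higher, and DESeq2 called 29 lower and 0 higher. Those that fell include Oasl1 (-2.84, SE 0.506, edgeR adjusted p = 0.00669), the interferon-induced GTPase Igtp (-1.002, SE 0.186, edgeR adjusted p = 0.00831) and the interferon signalling factor Irf9 (-0.75, SE 0.145, edgeR adjusted p = 0.00958).

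Between kFRA and DH-LMP2A edgeR called 0 of these 52 genes, with 2 lower and 5 higher at an unadjusted p under 0.05, and DESeq2 called 1 lower and 2 higher. Without kFRA replicate 2 edgeR called 4. The smallest p values were those of Xaf1 (1.99, SE 0.495, edgeR adjusted p = 0.052), Bst2 (0.72, SE 0.198, edgeR adjusted p = 0.0739), Slfn8 (-1.95, SE 0.621, edgeR adjusted p = 0.114) and Igtp (0.49, SE 0.185, edgeR adjusted p = 0.164). The median of the 52 genes there was 0.11 against -0.01 over all genes and -2.22 over the members. The mean log2 CPM of the 52 genes was 5.89, 4.76 and 4.55 in the WT libraries, 4.03, 4.14 and 3.17 in DH-LMP2A and 3.8, 4.27 and 3.53 in kFRA. WT replicate 1, the library with the highest Trim30a, Trim12a and Trim6, was also the highest here, and kFRA and DH-LMP2A overlapped. The count in kFRA against WT was 9 without WT replicate 1, of which 8 were lower and 1 higher, and it was, with none higher, 4 without kFRA replicate 1 and 6 without kFRA replicate 3. Set against WT, DH-LMP2A gave 6 without WT replicate 1, 7 without DH-LMP2A replicate 1 and 7 without DH-LMP2A replicate 3. The part of the interferon-stimulated genes' levels in those of the members was not tested.

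Other antiviral genes and the rest of the TRIM family set the members in their wider class. These lists share genes, so their counts are not independent. Bst2, Samhd1 and Ifitm3 are restriction factors and also among the interferon-stimulated genes. Trim21 and Trim25 are other Trim genes and also among the interferon-stimulated genes. Trim28 is a restriction factor and also among the other Trim genes, and Bst2 is also among the dendritic cell markers below. Of 18 tested restriction factors outside the cluster, 5 fell and 1 rose in kFRA against WT (over all genes 11.1% and 6.68%). In DH-LMP2A against WT 4 fell and 0 rose (over all genes 7.3% and 5.07%), and 0 were higher at an unadjusted p under 0.05 and by DESeq2. Apobec3, the cytidine deaminase that mutates retroviral DNA, changed by -2.21 (SE 0.164, edgeR adjusted p = 2e-05) and -2.42 (SE 0.165, edgeR adjusted p = 1.97e-05) on the log2 scale in these comparisons. Ifitm1, a membrane protein that blocks viral entry, fell in kFRA against WT (-4.74, SE 0.86, edgeR adjusted p = 0.0062), and Bst2, which tethers budding virus, in DH-LMP2A against WT (-0.85, SE 0.198, edgeR adjusted p = 0.0227). In kFRA against DH-LMP2A edgeR called 0 of the 18, with 2 lower and 1 higher at an unadjusted p under 0.05 and 1 higher by DESeq2; after Bst2, Sun2 had the smallest p, at -0.37 (SE 0.139). Of 18 signalling partners of TRIM5, TRIM30a and TRIM6, 1 fell in kFRA against WT, the inflammasome sensor Nlrp3 (-2.06, SE 0.605, edgeR adjusted p = 0.0441). Nfkb1, next by p, was at -0.28 (SE 0.136). In the other 2 comparisons edgeR called 0 of these partners, with 0 lower and 1 higher at an unadjusted p under 0.05 in DH-LMP2A against WT and 0 lower and 2 higher in kFRA against DH-LMP2A. DESeq2 called 1 higher in each. The smallest p values belonged to Map3k7 (0.35, SE 0.117) and Nlrp3 (-1.24, SE 0.582) in the first of these and to Nfkbia (0.82, SE 0.223) and Tab1 (0.44, SE 0.151) in the second.

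Of 58 Trim genes elsewhere in the genome 36 were tested. In kFRA against WT 4 of them (11.1%) rose and 3 (8.33%) fell, against 6.68% and 11.1% over all genes, with a median log2 fold change of -0.11. Trim72, a membrane repair gene, fell from 2.55 ± 1.17 CPM in WT to 0.0786 ± 0.0979 CPM in kFRA and 0.0578 ± 0.0642 CPM in DH-LMP2A, under the level of 3 counts (edgeR adjusted p = 0.00327 and 0.00256). Trim68 rose by 1.02 (SE 0.179, edgeR adjusted p = 0.00518) and Trim39 by 0.74 (SE 0.132, edgeR adjusted p = 0.00576), and Trim14 changed by -1.13 (SE 0.276, edgeR adjusted p = 0.0227) in kFRA against WT. In DH-LMP2A against WT 3 rose and 2 fell, shares of 8.33% and 5.56% against 5.07% and 7.3% over all genes. Trim80 was at 0.95 CPM in WT and 0.12 in DH-LMP2A (edgeR adjusted p = 0.0247), Trim58 at 0.0382 and 0.625 CPM (edgeR adjusted p = 0.0425) and Trim59 rose by 0.84 (SE 0.211, edgeR adjusted p = 0.0304). Between kFRA and DH-LMP2A 1 rose and 2 fell, shares of 2.78% and 5.56% against 1.73% and 3.3% over all genes. They were Trim39 (0.57, SE 0.132, edgeR adjusted p = 0.0417), Trim59 (-0.98, SE 0.212, edgeR adjusted p = 0.0309) and Trim26 (-0.59, SE 0.131, edgeR adjusted p = 0.0333); Trim68, next by p, was at 0.62 (SE 0.176, edgeR adjusted p = 0.0822). Without kFRA replicate 2 the count rose from 7 to 11 in kFRA against WT and from 3 to 11 in kFRA against DH-LMP2A. Between kFRA and WT it was 4 without WT replicate 1 or kFRA replicate 3 and 3 without WT replicate 2. With any of the other 5 libraries left out it was 0 or 1 in kFRA against DH-LMP2A. The 5 calls between DH-LMP2A and WT became 1 or 2 without any library but DH-LMP2A replicate 2.

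Markers of plasma cells and of other spleen cells moved between the genotypes too. All 8 plasma cell markers were present, with a summed level of 18890 to 24140 CPM in WT, 34150 to 47160 in DH-LMP2A and 20400 to 32060 in kFRA. B cell markers summed to 630.8 to 916.1 CPM in WT, 731.6 to 1104 in DH-LMP2A and 540.5 to 634.7 in kFRA, with 4 of 8 called lower in kFRA against WT. Macrophage and monocyte markers, of cells in which Trim30a is known to be expressed, summed to 3090 to 5015 CPM in WT, 2856 to 4303 in DH-LMP2A and 4408 to 5618 in kFRA. Abundant genes carry such sums: the median log2 fold change of these 8 markers was -0.77 in kFRA against WT, with 2 called lower and 1 higher, and -1.12 in DH-LMP2A against WT, with 1 called in each direction and 6 lower at an unadjusted p under 0.05. Granulocyte markers summed to 239.6 to 813.4, 18.99 to 227.7 and 6.293 to 22.58 CPM, NK cell markers to 25.02 to 39.55, 14.3 to 25.1 and 5.13 to 6.09 CPM, and erythroid markers to 33.3 to 183.7, 1365 to 6927 and 627.5 to 1618 CPM. The 5 tested granulocyte markers had a median of -2.91 in kFRA against WT, with 2 called lower. In DH-LMP2A against WT their median was 0.34, with 1 called higher and 0 lower by edgeR. At an unadjusted p under 0.05 1 of them was lower there, and DESeq2 called 0 lower. For the 5 tested NK cell markers the median was -1.594 in kFRA against WT, with 3 called lower and 0 higher. In DH-LMP2A against WT it was 0.147, with 2 called lower and 1 higher. T cell markers summed to 47.06 to 104.9 CPM in WT, 42.78 to 86.45 in DH-LMP2A and 33.1 to 55.39 in kFRA. Dendritic cell markers summed to 136.5 to 198.3 CPM in WT, 64.57 to 100.1 in DH-LMP2A and 113.9 to 148.2 in kFRA. In DH-LMP2A against WT 2 of these 6 dendritic markers, Bst2 among them, were called lower and 0 higher, with a median of -0.245. At an unadjusted p under 0.05 1 was higher. In kFRA against WT 0 were called lower and 1 higher, with a median of -0.256. None of the markers in the table was at 0 in all libraries of a genotype. The part of these cells in the members' values was not tested.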

How the data were processed

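RNA from 9 libraries (TruSeq Stranded mRNA, paired reads of 75 bases) was sequenced by the authors. The deposited values are raw counts per gene, made with STAR 2.4.0a and featureCounts of Subread 1.5.0-p3 on mm10/GRCm38, per the submitters' processing notes; the strand setting, the handling of reads with several matches and the annotation are not given in the sources used here. All 9 libraries entered 1 fit of edgeR 4.0.16 (R 4.3.3) with filterByExpr, TMM scaling and the quasi-likelihood test with Benjamini-Hochberg adjustment, at a threshold of 0.05; the steps were tested on simulated data. DESeq2 1.42.0, other scalings, no filter, the replicate number as a block and leaving out each library were the alternatives. Members and gene lists were chosen with earlier results of these data known. Named genes are all members, other Trim genes inside the span, the chromosome 7 neighbours and the genes with the smallest p in each list and comparison (4 interferon-stimulated and 4 other Trim genes, 2 of the other lists), and for Trim12a and Trim30a the 5 genes with the highest Pearson r over 9 libraries (log2 CPM, prior count 2, mean of at least 1 CPM). Gm15133, Gm16464, Dchs1 and the genes from Gm4070 on, where not named by that rule, were chosen after their values were seen. Promoters and the ISRE search used RefSeq sequences, and transcript windows and coding sequences (Biopython 1.88) GENCODE's annotation of GRCm38, the build in those notes. Replicates are separate spleens. Replicate numbers were not used to pair the libraries in the main fit. One gene that the rule for named genes gives is not reported here.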

Additional observations from a re-analysis of the deposited data

How the results depend on the processing

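The log2 ratio of the members' mean summed levels kept its direction in every alternative run. By library size alone the WT libraries overlapped those of both other genotypes in that sum. With 1 library left out the ratio lay between -1.89 and -1.27 (kFRA against WT), -1.12 and -0.50 (DH-LMP2A against WT), and -0.93 and -0.63 (kFRA against DH-LMP2A). With library size alone in place of TMM, the members called were 0 in DH-LMP2A against WT and 3 in kFRA against DH-LMP2A, the interferon-stimulated genes called were 8 in kFRA against WT and 5 in DH-LMP2A against WT, and the other Trim genes called were 8 in DH-LMP2A against WT and 1 in kFRA against DH-LMP2A. With DESeq2 size factors 1 interferon-stimulated gene and 1 neighbour were called in kFRA against DH-LMP2A. The DESeq2 Wald test called 29 interferon-stimulated genes in DH-LMP2A against WT and, in kFRA against DH-LMP2A, 3 of them and 2 neighbours.

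Deviations of same-numbered libraries correlated weakly (r from -0.211 to 0.196, over 0.1 in 4 of 9 pairs). The pairs among the replicate 3 libraries were all positive, at 0.122, 0.16 and 0.162. With a replicate block 7, 2 and 5 members were called in kFRA against WT, DH-LMP2A against WT and kFRA against DH-LMP2A, and 25 interferon-stimulated genes in DH-LMP2A against WT and 1 in kFRA against DH-LMP2A.

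Leaving out each library in turn gave, in kFRA against WT, 5 to 7 members, 4 to 26 interferon-stimulated genes, 3 to 11 other Trim genes and 2 to 5 neighbours called. In DH-LMP2A against WT it gave 0 to 3 members, 6 to 16 interferon-stimulated genes, 1 to 4 other Trim genes and 2 neighbours. In kFRA against DH-LMP2A it gave 3 to 6 members, 0 to 4 interferon-stimulated genes, 0 to 11 other Trim genes and 0 to 1 neighbours.

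Among the 9 members, signs changed only where the gene was not called in that comparison. With library size alone Trim30c in kFRA against WT was 0.01 and Trim12c in DH-LMP2A against WT 0.08. With 1 library left out, Trim30c in kFRA against WT ran from -1.28 to 0.63 (0.63 without WT replicate 1 and 0.16 without kFRA replicate 3 were above 0). In DH-LMP2A against WT Trim30c ran from -1.08 to 0.18 (without WT replicate 1), Trim12c from -0.46 to 0.05 (without WT replicate 1) and Trim6 from -0.32 to 1.04, with -0.19 without DH-LMP2A replicate 2, -0.32 without WT replicate 2 and -0.23 without WT replicate 3. In kFRA against DH-LMP2A Trim30c ran from -0.58 (without kFRA replicate 2) to 0.87. The cause was not tested. The few counts of Trim12a and Trim6 in kFRA limit the precision of their ratios, and reads of near-identical copies limit that of Trim5, Trim12c and Trim34a.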
